A study of Mus musculus with 15 samples.

Results

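The mouse mitochondrial genome holds 37 genes, and each of the 37 had a row among the 45777 gene symbols counted in these brain libraries. They were taken by a rule on names alone that uses no measured value: 2 ribosomal RNA (rRNA) genes, mt-Rnr1 and mt-Rnr2, 22 transfer RNA (tRNA) genes, written Trn with the one-letter code of the amino acid, and 13 protein-coding genes, ND1 to ND6, ND4L, COX1 to COX3, ATP6, ATP8 and CYTB. Earlier results of these data were known when this set was chosen. All 37 matched a gene of GENCODE release M21 on the mitochondrial chromosome of the GRCm38 build. The tRNA genes are 59 to 75 bases long, and 14 lie on the plus strand and 8 on the minus strand. Of the protein-coding genes, 12 lie on the plus strand and ND6 lies on the minus strand.

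The study set an inhibitor of Bruton's tyrosine kinase (BTK) beside levodopa in mice given MPTP, a toxin whose metabolite blocks complex I of the respiratory chain and kills dopamine neurons. Poly(A)-selected RNA of brain, with no region named, was sequenced from 5 groups of 3 libraries; the protocol names 8 mice a group, and neither strain, sex nor age is given. Every group had 7 days of stabilization. Controls had a normal diet for 5 weeks and received no agent. All other groups received MPTP by intraperitoneal injection at 20 mg/kg/day for 1 week. The MPTP group then had a normal diet for 4 weeks. The levodopa group received levodopa at 2 mg/kg/day for 4 weeks, by a route that one label gives as oral and another as intraperitoneal. The low-dose and high-dose groups received the BTK inhibitor for 4 weeks at 1 and 2 µg/kg/day, also written as 25 and 50 pM, and the compound is not named. No label says that the libraries of a group came from separate mice, so p-values measure the spread between these libraries, which may be technical.

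Mitochondrial DNA is transcribed from both strands into long precursors that run through many genes. The tRNAs lie between the other genes, and their excision by RNase P and ELAC2 frees the flanking mRNAs and rRNAs. Most mitochondrial mRNAs then receive a short poly(A) tail, which brings them into poly(A)-selected libraries; a mature tRNA ends in CCA and has no such tail. A read on a tRNA row can therefore come from mature tRNA or from uncut precursor, and the counts do not separate the forms.

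The members the results turn on are shown first. These are tRNA genes in the orientation of their transcript, from the GENCODE release M21 transcripts on GRCm38, with the anticodon, as found by pairing of the flanking stem, in capitals. TrnG (tRNA-Gly, plus strand, chrM:9391-9458), TrnI (tRNA-Ile, plus strand, chrM:3706-3774) and TrnA (tRNA-Ala, minus strand, chrM:5018-5086) passed the test in at least 1 comparison. TrnF (tRNA-Phe, plus strand, chrM:1-68) opens the rRNA transcript, and TrnD (tRNA-Asp, plus strand, chrM:6942-7011) stood apart in 1 library.
TrnG: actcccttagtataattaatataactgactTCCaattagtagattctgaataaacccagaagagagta
TrnI: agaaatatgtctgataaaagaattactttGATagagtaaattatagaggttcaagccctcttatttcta
TrnA: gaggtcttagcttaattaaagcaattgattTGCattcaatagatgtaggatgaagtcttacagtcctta
TrnF: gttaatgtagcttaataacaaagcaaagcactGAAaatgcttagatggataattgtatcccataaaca
TrnD: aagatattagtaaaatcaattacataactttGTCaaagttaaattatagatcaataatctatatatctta

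TrnG touches the subunit gene COX3 on its 5′ side and the complex I gene ND3 on its 3′ side, with 0 bases between them on either side. The 148 bases around it (chrM:9351-9498, plus strand, GRCm38) are shown with TrnG in capitals, so that both junctions can be read.
TrnG junctions: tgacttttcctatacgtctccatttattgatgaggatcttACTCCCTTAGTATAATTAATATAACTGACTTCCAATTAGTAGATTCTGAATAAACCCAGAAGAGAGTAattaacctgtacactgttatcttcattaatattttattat

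Library depth was 58149722 to 61998459 counted reads for the 6 inhibitor libraries, and the other 9 were deeper without overlap, at 63314658 to 68257095. The deposited tables of the inhibitor libraries carry 24 empty columns and those of the other 9 carry 51, so a difference in how these libraries were handled and the treatment itself cannot be told apart. Control library 2 and levodopa library 2 stood apart, with cerebellar markers (7 of 7 listed genes have a row) summing to 5821 and 4687 CPM (counts scaled to library size with edgeR's TMM factors) against 115 to 436 in the other 13. Cortex and hippocampus markers (7 of 7) summed to 410 to 1738 CPM in the 6, against 73.3 to 664 in the 9, and 4 of the 7 were above all 9 in all 6. Choroid plexus markers (5 of 5) summed to 290 to 1460 CPM against 9.06 to 913, and endothelial markers (5 of 5) to 94.0 to 162 CPM against 145 to 327. Dopamine neuron markers (6 of 6, with Slc6a3 at 0 in at least 1 library) summed to 71.4 to 396 CPM against 150 to 691. Thalamus and midbrain markers (5 of 5) summed to 197 to 663 CPM against 494 to 1243. Striatum markers (7 of 7) summed to 432 to 1391 CPM against 134 to 2116. The ranges of all these sums overlapped between the 6 and the 9. Apart from the cerebellar sum, none of them overlapped between the 6 and the MPTP libraries alone. The MPTP sums were 97.2 to 200 CPM for cortex and hippocampus, 10.4 to 21.7 for choroid plexus and 197 to 303 for endothelial markers. They were 466 to 691 CPM for dopamine neuron, 881 to 1243 for thalamus and midbrain, and 134 to 174 for striatum markers. Of the endothelial markers, 1 lay below all 9 in all 6. Of the choroid plexus, dopamine neuron, striatum, and thalamus and midbrain markers, 0 lay apart from all 9 in all 6. These sums tended to differ with the inhibitor groups, and their part in the results on these genes was not tested. In bulk tissue, fewer cells of a type and less RNA per cell cannot be told apart.

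Mitochondrial-genome genes took 5.38% of all reads in control library 2, the lowest, and 11.1% in high-dose library 2, the highest. Nearly all of these reads were protein-coding: the 13 genes took 5.13 to 9.56% of a library, the 2 rRNA genes 0.244 to 1.48%, and the 22 tRNA genes 0.0121 to 0.0299%. The protein-coding share was 7.08% ± 1.74 (SD, n = 3) in controls, 8.02% ± 0.753 after MPTP, 7.34% ± 0.188 with levodopa, 7.37% ± 0.873 at the low dose and 8.005% ± 1.42 at the high dose. These groups overlapped. The rRNA share was 0.603% ± 0.311 in controls, 0.755% ± 0.0865 after MPTP, 0.704% ± 0.270 with levodopa, 1.18% ± 0.260 at the low dose and 1.26% ± 0.241 at the high dose. Every inhibitor library had a larger rRNA share than any of the other 9. The tRNA share was 0.0168% ± 0.00418 in controls, 0.0218% ± 0.00214 after MPTP, 0.0205% ± 0.00218 with levodopa, 0.0229% ± 0.000847 at the low dose and 0.0249% ± 0.00465 at the high dose.

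**Figure D1:**
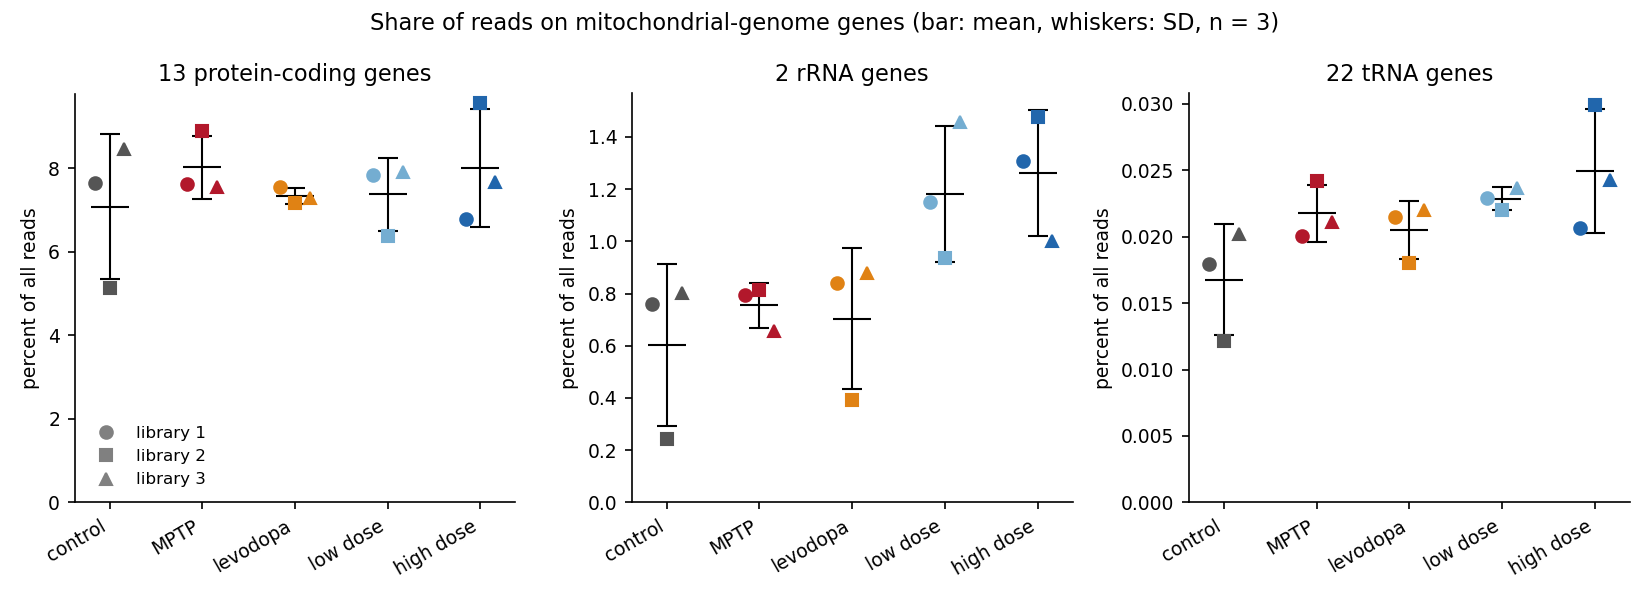
Share of all reads on the 13 protein-coding, 2 rRNA and 22 tRNA genes, in percent, for each library by group; bars are means and whiskers SD, n = 3. The 6 inhibitor libraries lie at 0.937 to 1.48% for rRNA and the other 9 at 0.244 to 0.880%, while the protein-coding shares overlap.

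Per kilobase of gene, COX1, the catalytic subunit of cytochrome c oxidase, had the highest level, 14932 ± 2190 CPM per kilobase (SD, n = 15 libraries). ATP6, CYTB, ATP8, COX2 and ND1 followed at means of 8994 to 7751 CPM per kilobase, and the ranges of these neighbours over the 15 libraries overlapped. The rRNAs held places 10 and 11 in that order, at 3901 ± 1568 CPM per kilobase for mt-Rnr1 and 3336 ± 1293 for mt-Rnr2. ND6, on the other strand, was the lowest protein-coding gene at 550 ± 187 CPM per kilobase.

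TrnS1, which carries serine and lies at the 3′ end of COX1 on the opposite strand, was the highest tRNA gene at 1300 ± 310 CPM per kilobase and took 35.9 to 47.8% of all tRNA reads. TrnE (tRNA-Glu) followed at 461 ± 116, and 19 more tRNA genes had means from 305 down to 2.61 CPM per kilobase. TrnS1 and TrnE lie on the minus strand, and whether the counting used strand is not given. Their reads may include RNA of the opposite strand, which for TrnS1 is that of COX1, with an overlap of 3 bases. TrnS2, the other serine tRNA, had 0 to 7 reads a library and was the 1 member below the filter on low counts. The remaining 36 members were tested among 21821 genes; TrnG met the filter through the inhibitor libraries, where its counts were high.

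**Figure D2:**
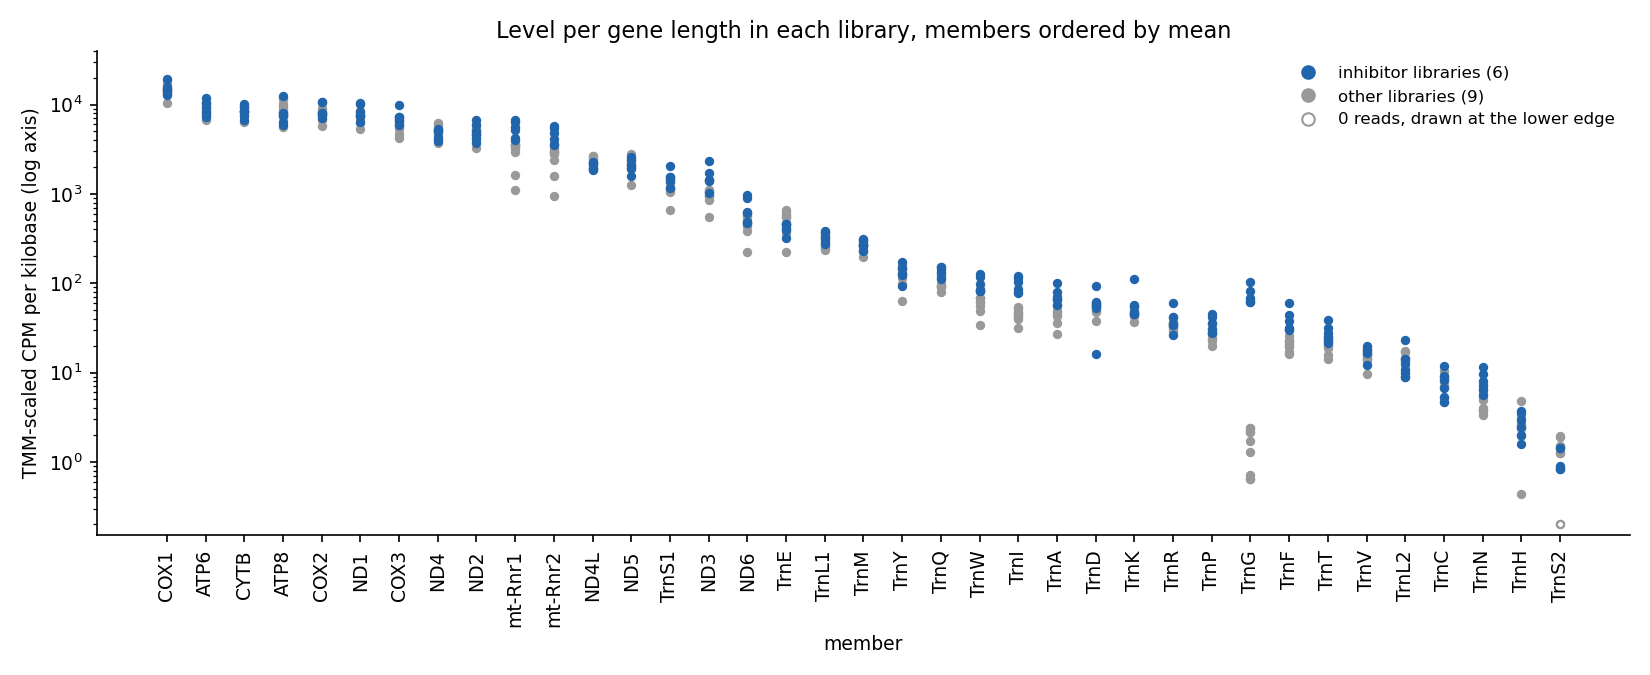
TMM-scaled CPM per kilobase (log axis) of each of the 37 genes in each of 15 libraries, ordered by mean level; blue points are the 6 inhibitor libraries, grey points the other 9, and open points 0 reads. TrnG is the gene whose blue and grey points lie farthest apart, while most genes show both colours mixed.

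TrnG was the member that changed most. This tRNA reads the glycine codons of mitochondrial mRNAs. Its row held 11, 9 and 10 reads in the controls, 6, 8 and 11 in the MPTP group, and 3, 3 and 3 in the levodopa group. It held 250, 255 and 315 reads in the low-dose group and 269, 416 and 273 in the high-dose group. The 2 inhibitor groups were far above all others, with no intermediate library.

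In TMM-scaled CPM, TrnG averaged 0.153 ± 0.009 in controls, 0.123 ± 0.038 after MPTP and 0.045 ± 0.003 with levodopa (SD, n = 3 each). It averaged 4.62 ± 0.774 at the low dose and 5.31 ± 1.42 at the high dose. The lowest inhibitor library was 25.3 times the highest of the other 9, and the mean of the 6 was 46.4 times the mean of the 9.

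Against the MPTP group, TrnG rose by a log2 fold change of 5.21 ± 0.29 (SE) at the low dose, with an adjusted p of 5.7e-06 by edgeR's quasi-likelihood test with Benjamini-Hochberg adjustment over 21821 genes. The high dose gave a log2 fold change of 5.41 ± 0.29 (edgeR adjusted p = 4e-06). Against the controls the values were 4.90 at the low dose (edgeR adjusted p = 9.7e-06) and 5.10 at the high dose (5.1e-06). With every gene that had a count kept in place of the filter on low counts, the edgeR adjusted p was 6.5e-06 and 4.4e-06 against MPTP and 1.1e-05 and 4.5e-06 against controls. These comparisons share the MPTP or the control libraries between doses. Between the doses the log2 difference was 0.20, with a 95% interval of -0.32 to 0.72.

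The direct neighbours of TrnG did not pass. COX3, whose last base touches the first base of TrnG in the junction sequence above, had log2 fold changes of 0.11 at the low dose and 0.35 at the high dose against MPTP (edgeR adjusted p = 0.80 and 0.41). ND3 had 0.46 and 0.80 (edgeR adjusted p = 0.32 and 0.14), and passed at the high dose only with the fit restricted to those groups or without control 2 and levodopa 2. Per 1000 COX3 reads, TrnG had 0.733 to 1.20 reads under the inhibitor and 0.0100 to 0.0447 in the other 9 libraries. Per 1000 ND3 reads it had 7.11 to 15.6 against 0.119 to 0.779. Both highest ratios were in low-dose library 3, where COX3 and ND3 had the fewest reads among the inhibitor libraries. The difference in TrnG reads between the inhibitor libraries and the other 9 was thus present relative to both genes it lies between. In the 9, TrnG had the lowest mean of the tested tRNA genes, 0.107 CPM, where TrnR, which follows ND3, had 2.38. In the 6 inhibitor libraries the means were 4.97 for TrnG and 2.62 for TrnR. Whether the 6 or the 9 hold the unusual level was not tested.

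**Figure D3:**
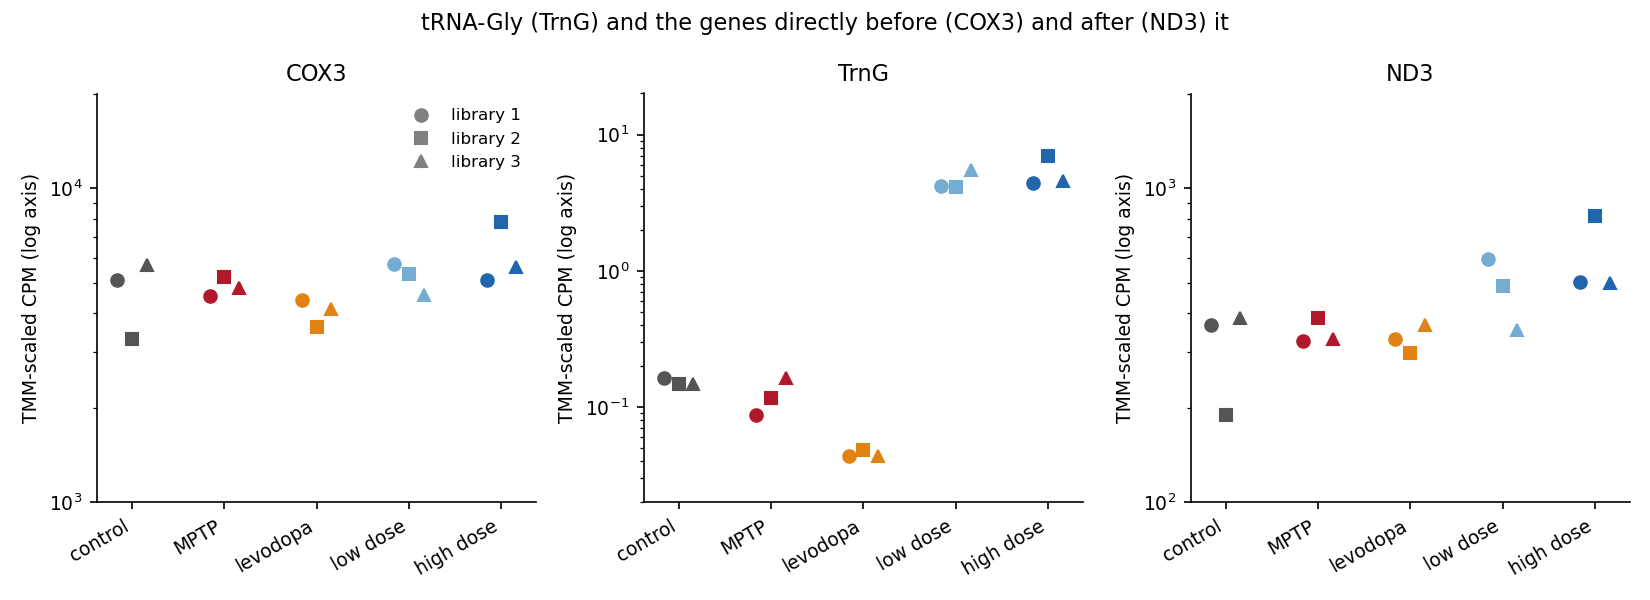
TMM-scaled CPM (log axes, with separate scales) of COX3, TrnG and ND3 in each library by group. TrnG lies at 4.14 to 6.94 CPM in the 6 inhibitor libraries and at 0.044 to 0.163 in the other 9, while COX3 overlaps between groups and ND3 in low-dose library 3 lies within the range of the others.

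Some members have near-identical nuclear copies, which makes their separate counts uncertain, and how reads that match both places were counted is not given in the sources used here. Windows of 50 bases also found in annotated nuclear transcripts made up 100% of COX2, 99.9% of COX3, 99.5% of ATP6, 98.8% of ND4L, 98.0% of ND3, 62.2% of ND4 and 51.1% of COX1. Smaller shares were found for ND2, ND5 and mt-Rnr2 (8.19, 7.61 and 1.04%), and no tRNA gene had any. The search covered annotated transcripts only, so it could not find a copy of a tRNA gene that lies between annotated pseudogenes. A run of 7 annotated pseudogenes on the minus strand of chromosome 1 (chr1:24611535-24616197, GRCm38) holds copies from COX1 to ND4 in mitochondrial order. The copies of COX3 (Gm28437) and ND3 (Gm28438) are separated there by 69 bases (chr1:24613120-24613188), the place where TrnG, 68 bases long, lies in the mitochondrial genome. Gaps also lie between the copies of ND3 and ND4L, of ATP6 and COX2, and of COX2 and COX1. In the mitochondrial genome TrnR, TrnK with ATP8, and TrnD with TrnS1 lie at those places. The sequence of these gaps was not compared here, and the part of the gap at TrnG in the TrnG counts was not tested.

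Beyond TrnG, 1 more member rose in each comparison of an inhibitor dose with MPTP. At the low dose 2 of 36 members rose, TrnG and TrnI, and 0 fell, where 8.53% of all genes tested passed in either direction, 4.78% upward and 3.75% downward. For the high dose the same 2 members rose and 0 fell, where 1.97% of all genes passed, 1.08% upward and 0.884% downward. The median log2 fold change of the 21 tested tRNA genes was 0.17 at the low dose and 0.44 at the high dose, that of the 13 protein-coding genes -0.08 and 0.11, and that of all genes -0.0045 and -0.011.

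TrnI reads the isoleucine codons and sits just after ND1, overlapping it by 2 bases. It had 219, 132 and 251 reads in the controls, 199, 211 and 206 in the MPTP group, 226, 169 and 253 with levodopa, 420, 335 and 472 at the low dose and 327, 475 and 356 at the high dose. All 6 inhibitor libraries were above the other 9. The log2 fold change against MPTP was 1.20 ± 0.24 at the low dose (edgeR adjusted p = 0.013) and 1.09 ± 0.24 at the high dose (0.041). Against the controls it was 1.18 at the low dose (edgeR adjusted p = 0.021) and 1.07 at the high dose, which did not pass (0.070). These calls were less stable than those of TrnG. The high-dose call against MPTP was lost when any 1 of its 6 libraries was left out (adjusted p = 0.071 to 0.18), and the low-dose call without MPTP library 2 or 3 (0.052 and 0.051). The low-dose call against controls was lost without control library 2 (0.060) or low-dose library 3 (0.079).

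TrnA and TrnW, neighbours on opposite strands between ND2 and COX1, passed against the controls and not against MPTP, where both passed at the high dose with DESeq2 in place of edgeR. Against the controls 4 of 36 members rose at the low dose, TrnG, TrnI, TrnW and TrnA, where 5.4% of all genes tested passed, 2.74% upward and 2.66% downward. At the high dose 2 rose, TrnG and TrnA, where 0.376% of all genes passed, 0.215% upward and 0.16% downward, and 0 members fell in either comparison.

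TrnA (tRNA-Ala) had 166, 114 and 202 reads in the controls, 232, 259 and 208 after MPTP, 225, 247 and 311 with levodopa, 273, 244 and 279 at the low dose and 281, 416 and 330 at the high dose. The controls were lowest, and the levodopa libraries overlapped the inhibitor libraries. Its log2 fold change against controls was 0.87 ± 0.22 at the low dose and 1.22 ± 0.22 at the high dose (edgeR adjusted p = 0.041 and 0.039). Both calls were lost when any 1 of the 6 libraries compared was left out (adjusted p = 0.055 to 0.13 and 0.071 to 0.19). TrnW (tRNA-Trp) had 219, 138 and 251 reads in the controls, 280, 312 and 275 after MPTP, 316, 361 and 379 with levodopa, 327, 335 and 451 at the low dose and 344, 504 and 390 at the high dose. It rose against controls at the low dose by 1.03 ± 0.23 (edgeR adjusted p = 0.029), but not without control library 2 (0.082) or low-dose library 3 (0.10). Its log2 fold change at the high dose was 1.15 (edgeR adjusted p = 0.056). The MPTP and levodopa libraries, too, lay above all controls for TrnW.

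**Figure D4:**
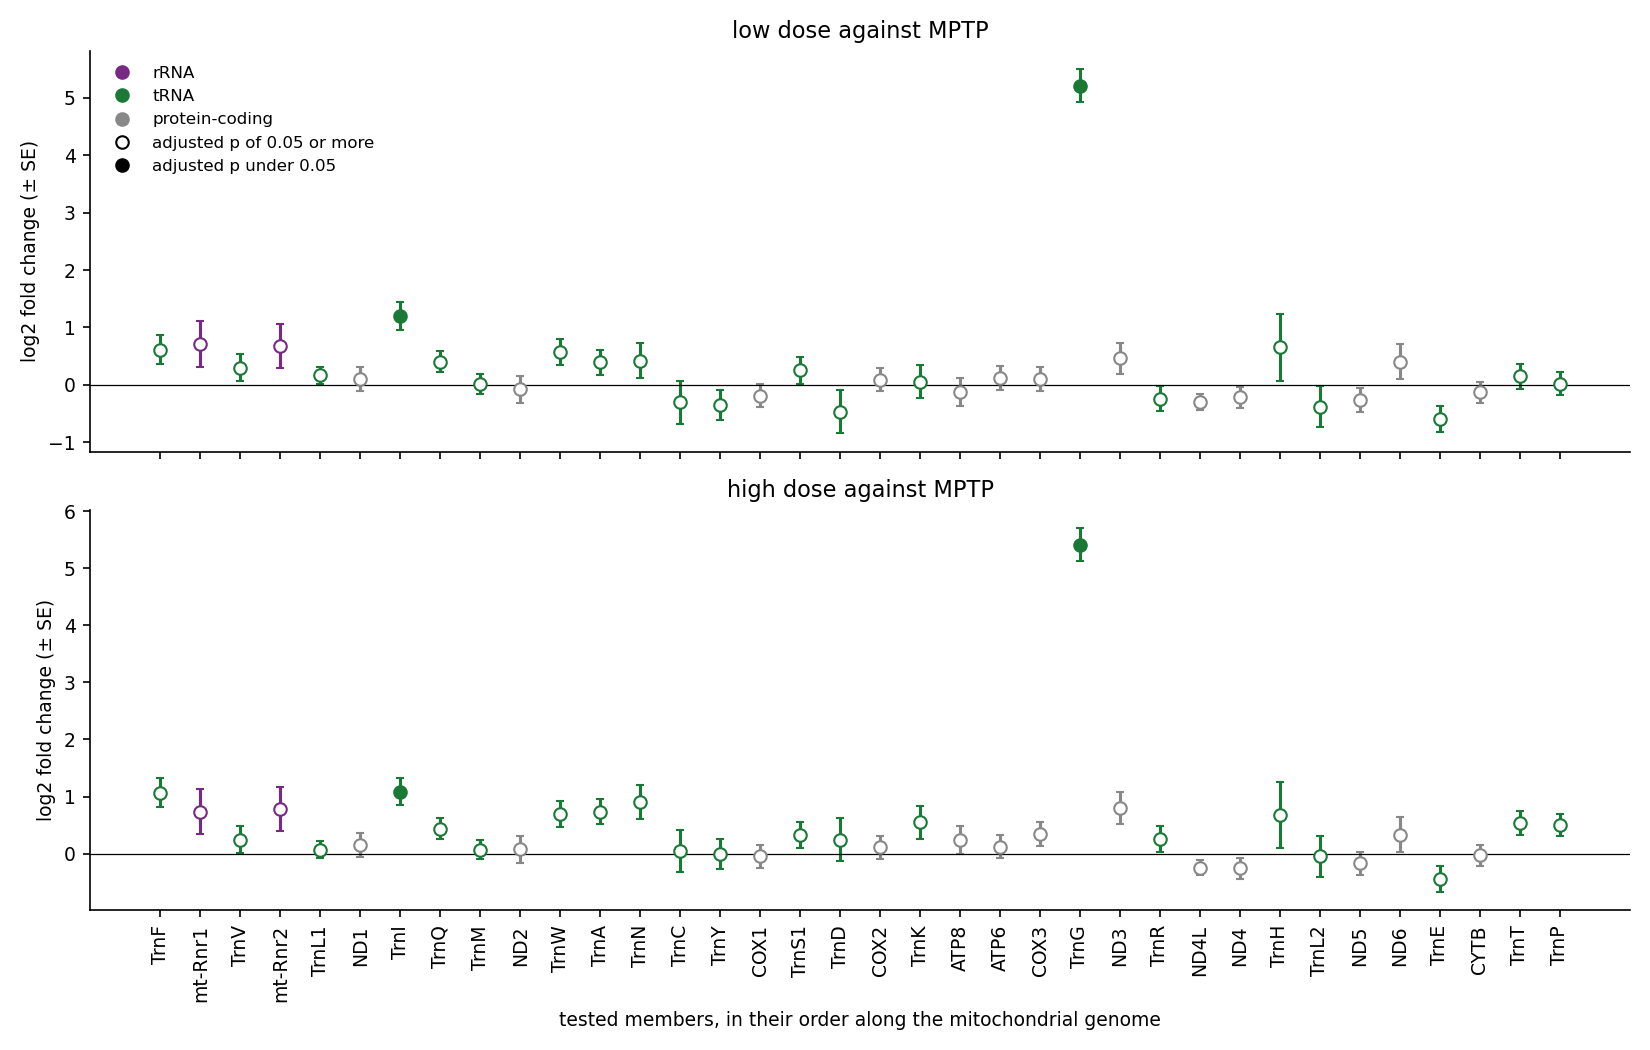
Log2 fold change ± SE of the 36 tested members against the MPTP group at the low dose (upper panel) and high dose (lower panel), in their order along the mitochondrial genome, coloured by class; filled points have an adjusted p under 0.05. TrnG and TrnI are filled in both panels, TrnG lies above 5, and no protein-coding or rRNA point is filled.

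Separation of the libraries was counted apart from the test. Against MPTP, all low-dose libraries lay above all MPTP libraries for 9 members and below for 4, where 20.9% of all genes lay above and 19.8% below. The high-dose libraries lay above for 10 and below for 2, where the shares of all genes were 20.4% and 19.4%. Against controls the low dose lay above for 14 and below for 0, where 14% and 12.2% of all genes did, and the high dose above for 12 and below for 0, where 14.4% and 13% did. In the count over both doses, 5 of 36 members had all 6 inhibitor libraries above the other 9: TrnG, TrnI, TrnF, mt-Rnr1 and mt-Rnr2. Over all genes tested this held for 4.69% upward and 3.87% downward, and 0 members lay below. TrnF is the first gene of the heavy-strand transcript that leads into the rRNAs. Its mean was 1.40 ± 0.207 CPM in the 9 (SD, n = 9) and 2.65 ± 0.781 CPM in the 6 (SD, n = 6). Its log2 fold change against MPTP was 0.61 at the low dose (edgeR adjusted p = 0.15) and 1.07 at the high dose (0.052), and neither passed.

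The rRNAs of the mitochondrial ribosome, 12S (mt-Rnr1) and 16S (mt-Rnr2), did not pass in any comparison with all 15 libraries in the fit, although all 6 inhibitor libraries lay above the other 9. mt-Rnr1 had 3112, 1043 and 3493 CPM in the controls, 3192, 3354 and 2776 after MPTP, 3341, 1534 and 3311 with levodopa, 4957, 3819 and 6411 at the low dose and 5314, 6163 and 4066 at the high dose. mt-Rnr2 had 4385, 1493 and 4648 CPM in the controls, 4535, 4670 and 3770 after MPTP, 4879, 2537 and 5194 with levodopa, 6473, 5614 and 8621 at the low dose and 7631, 8985 and 5719 at the high dose. The 2 libraries rich in cerebellar markers, control 2 and levodopa 2, were the lowest for both genes.

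Against MPTP the log2 fold change of mt-Rnr1 was 0.70 ± 0.40 at the low dose and 0.74 ± 0.40 at the high dose (edgeR adjusted p = 0.29 and 0.36). That of mt-Rnr2 was 0.67 ± 0.38 and 0.78 ± 0.38 (edgeR adjusted p = 0.29 and 0.30). With control 2 and levodopa 2 left out of the fit, both genes passed against MPTP, with edgeR adjusted p-values of 0.019 and 0.021 at the low dose and 0.029 and 0.022 at the high dose. With only the 2 compared groups in the fit they passed as well, with adjusted p-values of 0.035 and 0.035 at the low dose and 0.025 and 0.026 at the high dose. These were the only 2 of 15 alternatives in which either gene passed against MPTP. With any 1 of the 6 compared libraries left out, the edgeR adjusted p-values were 0.25 to 0.59 at the low dose. At the high dose they were 0.31 to 0.67. Against controls the log2 fold changes of mt-Rnr1 and mt-Rnr2 were 0.99 and 0.98 at the low dose and 1.02 and 1.09 at the high dose (edgeR adjusted p = 0.15, 0.14, 0.19 and 0.16). Without control library 2 they were 0.61 and 0.60 at the low dose (edgeR adjusted p = 0.31 and 0.28). At the high dose they were then 0.64 and 0.72 (edgeR adjusted p = 0.42 and 0.34). Against controls, neither gene passed at either dose in any of the 15 alternatives.

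Within the mitochondrial reads the balance differed in the same way. Per 100 protein-coding reads there were 8.07 ± 2.87 rRNA reads in controls, 9.42 ± 0.904 after MPTP, 9.55 ± 3.56 with levodopa, 15.9 ± 2.13 at the low dose and 15.9 ± 3.15 at the high dose (SD, n = 3 each). The inhibitor libraries lay at 13.04 to 19.3 and the other 9 at 4.76 to 12.1, with no overlap. The ratio of 16S to 12S reads was 1.31 to 1.65 over the 15 libraries and its groups overlapped.

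**Figure D5:**
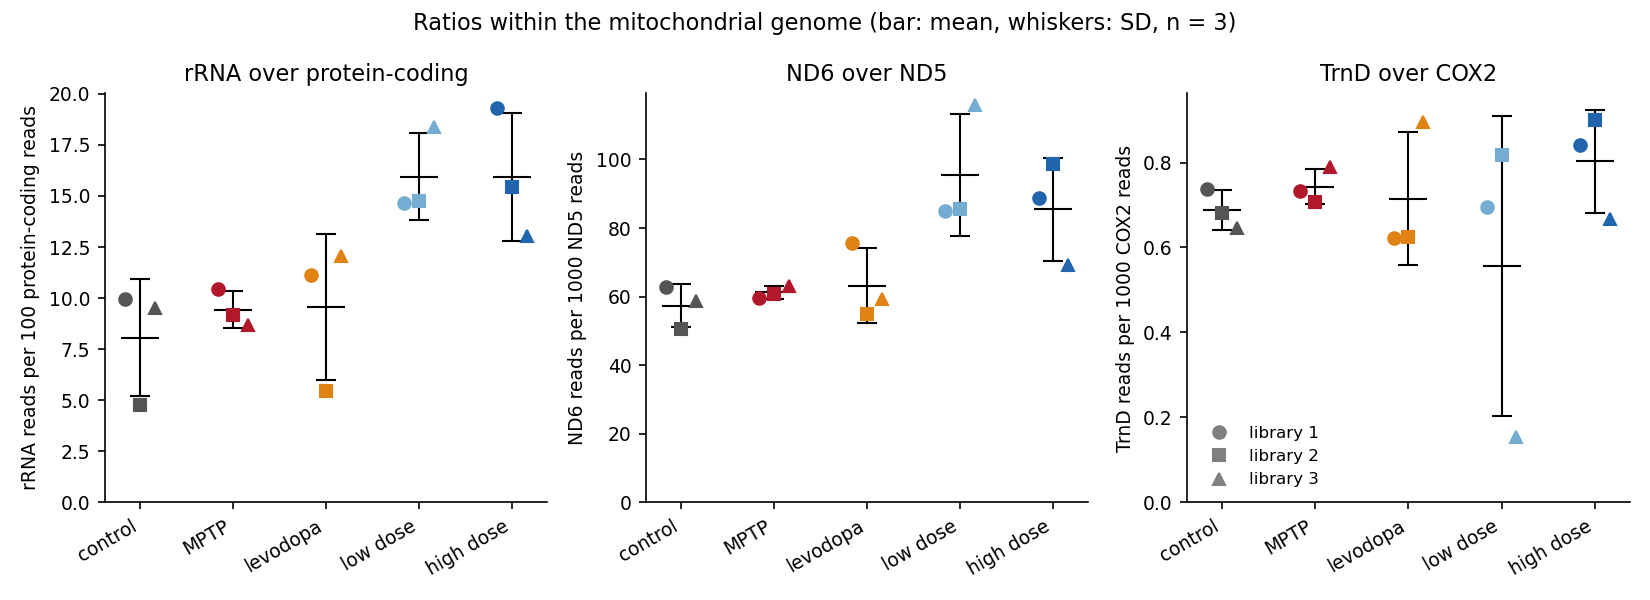
Ratios within the mitochondrial genome for each library by group, with means and SD (n = 3): rRNA reads per 100 protein-coding reads, ND6 reads per 1000 ND5 reads, and TrnD reads per 1000 COX2 reads. All 6 inhibitor libraries exceed the other 9 in the first panel, the ranges overlap in the second, and low-dose library 3 lies alone at 0.154 in the third.

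By edgeR with all 15 libraries, none of the 13 protein-coding genes passed in any of the 7 comparisons. Their log2 fold changes ran from -0.30 (ND4L) to 0.46 (ND3) at the low dose and from -0.26 (ND4) to 0.80 (ND3) at the high dose against MPTP. ND4L and ND4, complex I genes read from 1 joint mRNA, had negative values at both doses. COX1 stood at -0.19 and -0.05 and CYTB, the mitochondrial subunit of complex III, at -0.13 and -0.03.

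ND6, the complex I gene on the minus strand, had log2 fold changes of 0.40 and 0.34 against MPTP and 0.97 and 0.90 against controls (edgeR adjusted p = 0.44, 0.62, 0.079 and 0.15). ND6 lies opposite the end of ND5, which it overlaps by 14 bases. Per 1000 ND5 reads, ND6 had 69.1 to 116 reads with either inhibitor dose, against 50.6 to 75.7 elsewhere, and only levodopa library 1 and high-dose library 3 overlapped. Whether the counting used strand is not given in the sources used here, so reads of ND6 and of the strand opposite it may not be separate. The same holds for the 8 minus-strand tRNA genes.

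TrnE, also on the minus strand and next to ND6, did not follow it. It had log2 fold changes of -0.60 and -0.45 against MPTP (edgeR adjusted p = 0.12 and 0.33), with all inhibitor libraries below all MPTP libraries. TrnD was singled out after its values were seen. It had 64 reads in low-dose library 3 and 162 to 393 in the other 14, which is 0.154 per 1000 reads of its downstream neighbour COX2 against 0.624 to 0.901. TrnR, ND3, COX3 and ND4L were also lowest among inhibitor libraries in that library, at 102, 20191, 261768 and 31491 reads. So were TrnH and TrnN, at 6 and 23 reads.

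The comparison of MPTP with controls asked what the toxin alone left behind 4 weeks after injection. By edgeR 0 of 36 members passed, where 0% of all genes did; 3 members had an unadjusted p under 0.05 among 1445 genes in all, and DESeq2 called 0 members and 51 genes. TrnE, ND5 and TrnA were those 3, with log2 fold changes of 0.76, 0.50 and 0.49 (edgeR adjusted p = 0.72 for each). All MPTP libraries lay above all controls for 6 members, ND5, ND6, TrnE, TrnT, TrnW and TrnA, and below for 0, where 6.83% of all genes lay above and 6.2% below. The median log2 fold change was 0.10 for protein-coding genes, 0.29 for rRNA genes and 0.19 for tRNA genes, and -0.013 for all genes. Control library 2 was the lowest of the 15 for protein-coding, rRNA and tRNA shares, and without it the log2 fold changes of mt-Rnr1 and mt-Rnr2 were -0.09 and -0.06.

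Levodopa given after MPTP was set against MPTP with no drug. By edgeR 0 of 36 members passed, where 0% of all genes did, and DESeq2 called 0 members and 2 genes. TrnG was the 1 member with an unadjusted p under 0.05, of 645 such genes. It had 3 reads in each levodopa library against 6, 8 and 11 after MPTP, 9 reads in all against 25. The ratio of levels was 0.369, with a 95% interval of 0.151 to 0.816 that covers counting error only. That interval was computed for TrnG alone, the member of smallest p, so it adds no support beyond the test. The log2 fold change was -1.40 (edgeR adjusted p = 0.95). The libraries did not overlap upward for 2 members and downward for 8, where 4.93% and 4.65% of all genes did so. Those lower included COX1, COX3, ND4, ND4L and CYTB, with log2 fold changes from -0.26 to -0.12.

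The 2 inhibitor doses, which differ by 1 µg/kg/day, were compared with each other. By edgeR 0 of 36 members passed, where 0% of all genes did; 2 members, TrnR and TrnP, had an unadjusted p under 0.05 among 486 genes, and DESeq2 called 0 members and 2 genes. TrnP (tRNA-Pro) had a log2 difference of 0.48 with a 95% interval of 0.04 to 0.92, and was the only member without overlap, where 5.23% of all genes lay above and 5.34% below. For TrnI the log2 difference was -0.11 (-0.63 to 0.41) and for mt-Rnr1 0.03 (-0.85 to 0.92), so a moderate difference in either direction was not detectable with 3 libraries a dose.

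Nuclear genes that serve mitochondrial RNA were counted from lists. Of 78 mitochondrial ribosomal protein genes, 7 rose and 0 fell at the low dose against MPTP, where 4.78% of all genes rose and 3.75% fell, with a median log2 fold change of 0.21. Among them were Mrps24 (0.53), Mrps33 (0.71), Mrps17 (0.37) and Mrpl23 (0.48), with edgeR adjusted p-values of 0.021 to 0.027. At the high dose 2 of the 78 rose, Mrps24 (0.57) and Mrpl20 (0.53), and 0 fell, where 1.08% and 0.884% of all genes did, with a median of 0.29. The sum over the 78 was 2015 to 2397 CPM with either inhibitor dose and overlapped the 1811 to 2055 CPM of the other 9 libraries.

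Of 21 genes of mitochondrial RNA processing and decay, 1 rose and 1 fell at the low dose against MPTP, where 8.53% of all genes passed in either direction; counts this small in this and the next lists are near that background and are no result about the lists. Hsd17b10, a subunit of mitochondrial RNase P, which cuts tRNA 5′ ends, had log2 fold changes of 0.51 at the low dose and 0.49 at the high dose (edgeR adjusted p = 0.012 and 0.033). Fastkd1, of a family of mitochondrial RNA-binding proteins, fell by 0.45 at the low dose (edgeR adjusted p = 0.038). Of 31 genes that modify or charge mitochondrial tRNAs, 2 rose and 0 fell at the low dose, the synthetases Fars2 (0.66) for phenylalanine and Pars2 (0.57) for proline (edgeR adjusted p = 0.015 and 0.027), and 0 passed at the high dose. Of 18 genes of transcription and replication, 1 rose at the low dose, the helicase Twnk (0.63, edgeR adjusted p = 0.036), and 0 passed at the high dose. Of 10 regulators of mitochondrial biogenesis, 0 passed against MPTP at either dose. Against controls at the low dose, 5.4% of all genes passed, 2.74% upward and 2.66% downward. Of the genes on these lists, Mrps24, Mrps33, Mrps26 and Hsd17b10 rose in that comparison, and Primpol and Wars2 fell. Ppargc1a, a coactivator of mitochondrial genes, also fell there, by 0.70 (edgeR adjusted p = 0.047). The regulators summed to 515 CPM in control library 2 and to 346 and 343 in control libraries 1 and 3. At the high dose against controls Mrps24 rose.

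RNAs that lack a poly(A) tail were followed as well, since the tRNAs lack one too. Of 18 listed, 17 had a row and 6 were tested; 1 rose at the low dose against MPTP, Rn7s1, a 7SL RNA of the signal recognition particle (1.504, edgeR adjusted p = 0.049). Against controls the log2 fold change of Rn7s1 at the low dose was -0.60 (edgeR adjusted p = 0.40), and its counts cannot be separated with certainty from those of its near copy Rn7s2. The median log2 fold change of the 6 against MPTP was 1.37 at the low dose and 1.28 at the high dose, and against controls 0.71 and 0.57. Their summed level was 420 to 652 CPM in the control and MPTP libraries, 795 to 2190 in the levodopa libraries and 495 to 1728 in the inhibitor libraries. Nearly all of that sum was 1 row, Rn18s-rs5, with 418 to 650 CPM in the control and MPTP libraries, 790 to 2185 with levodopa and 488 to 1720 with either inhibitor dose. Long nuclear RNAs summed to 7278 to 12248 CPM with either inhibitor dose, against 9501 to 14842 elsewhere, with 0 of 7 passing at either dose. The part of RNA selection in the tRNA and rRNA values was not tested.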

How the data were processed

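RNA of 15 mouse brain libraries, 5 groups of 3, had been sequenced after TruSeq Stranded mRNA library preparation, per the labels' protocols. Each deposited table gives, for every gene symbol, a count of reads as a whole number. The submitters' processing notes name bcl2fastq 2.20.0, Trimmomatic, HISAT2 2.1.0, StringTie 2.1.3b and the GRCm38 (mm10) build; the annotation, the strand setting and the treatment of reads matching several places were not given there or in the labels. Poly(A) selection captures tRNAs and rRNAs poorly, so their counts are not amounts of mature RNA.

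Counts were filtered with filterByExpr by group, scaled by TMM and tested with edgeR 4.0.16 (quasi-likelihood test) in R 4.3.3, in 1 fit of 15 libraries with no covariates. Calls used a Benjamini-Hochberg adjusted p under 0.05 over all 21821 genes tested, in 7 comparisons. The SE of a log2 fold change was taken as its size over the root of edgeR's F. Levels are TMM-scaled CPM. The test was checked on simulated data. DESeq2 1.42.0, other scalings, filters, fits and left-out libraries were tried as alternatives. Members and lists were chosen with earlier results of these data known. The rRNA rows and the called rows are given in every library, and of each list at most the 4 called genes of smallest p. Chi-square per degree of freedom between libraries of a group was 31.7 to 512, so none was taken as a repeat of another.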

Additional observations from a re-analysis of the deposited data

How the results depend on the processing

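TrnG was called against MPTP and controls at both doses in every one of the 14 alternatives in which it was tested per comparison, with log2 fold changes of 4.76 to 5.68; the filter of 5 CPM in 3 libraries removed it. The number of members called, 2 at the low dose against MPTP, was 1 with that filter, 5 with only the compared groups fitted and 5 without control 2 and levodopa 2, and 1 to 2 when a library was left out. At the high dose against MPTP, 2 became 1 with upper-quartile scaling, with no filter, with the 5 CPM filter and with the replicate block, 5 with DESeq2, 9 with only the compared groups, 8 without control 2 and levodopa 2, and 1 whichever library was left out. At the low dose against controls, 4 became 2 with the 5 CPM filter, 1 with only the compared groups, and 1 to 3 when a library was left out. In the high-dose comparison with controls, 2 became 9 with DESeq2, 1 with no filter, with only the compared groups, with the replicate block and without control 2 and levodopa 2, and 1 whichever library was left out. The cause of these shifts was not tested. In the other 3 comparisons 0 members passed under every alternative run. As a percentage of nuclear reads, the protein-coding share was 8.80 after MPTP and 7.98 with levodopa, and the tRNA share at the low dose 0.0250. No called value reversed its direction. Replicate numbers did not pair the libraries: deviations of same-numbered libraries correlated at -0.297 to 0.239, and 0 of 7 comparisons met the threshold of 0.1 for every pair. Rows of few reads, such as TrnH and TrnG outside the inhibitor groups, limit what could be detected.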
